A study of Mus musculus with 9 samples.

Results

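Serine proteases anchored in the epithelial cell surface, and the inhibitors that hold them in check, were followed through 9 RNA libraries of mouse embryos. The members are 6 genes, chosen by symbol from 16070 listed rows: the proteases Tmprss2, St14 and Prss8, the Kunitz-type inhibitors Spint1 and Spint2, and the serpin Serpinb6c. All 6 were listed and passed the filter on low values, together with 11850 tested genes in all. They were picked with earlier results of these data in view (Serpinb6c stood among the genes of smallest p in an earlier fit), so their own differences between groups are given as descriptions.

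C57BL/6 was the strain of all embryos, which were microinjected, kept in culture and taken 4.5 days later, when a mouse embryo is a blastocyst. Wild-type (WT) embryos, embryos labelled H3R17H (histone H3 with histidine in place of its arginine 17) and embryos labelled as lacking Carm1 (Carm1-/-), the methyltransferase of that residue, gave 3 libraries each. All levels are in FPKM, a count of sequenced fragments divided by the length of the transcript and by the size of the library. The labels describe the starting material both as embryo and as single cell and do not say that libraries came from separate embryos, so any p-value here reflects only how much these libraries vary, which may be technical.

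The libraries did not all match their labels. Carm1 stood at 8.86, 7.08 and 6.65 FPKM in WT, at 1.88, 0.02 and 1.22 FPKM under the label H3R17H and at 6.44, 12.68 and 9.52 FPKM in those labelled Carm1-/-. The sample descriptions and column names also give the name Carm to the libraries titled H3R17H and Hist to those titled Carm1-/-. Every group below is therefore named by its label, and no direction refers to a genotype known to be correct. The summed FPKM of 4 Y-linked genes was 30.7 to 35.7 in WT, 36.6 in replicate 1 labelled H3R17H and 28.1 in replicate 1 labelled Carm1-/-, and at most 0.00796 in the other 4 libraries. Of 16 trophectoderm markers, those of the outer layer of the blastocyst, the summed FPKM was 5870, 6440 and 8870 in WT, 1800, 1860 and 4890 under the label H3R17H and 9410, 2220 and 2720 under the label Carm1-/-, in the order of the replicates. The keratins Krt8 and Krt18 made up most of each sum. Of 15 tested markers 4 had higher values than WT under the label H3R17H and 3 under the label Carm1-/-. By the list's median of log2(FPKM + 1) minus the WT mean, libraries labelled H3R17H lay at -1.09, -1.48 and -0.52. Those labelled Carm1-/- lay at 0.22, -1.6 and -1.36. Replicate 1 labelled Carm1-/- thus stood apart from its group. Leaving it out sets replicates 2 and 3 of that label, both without Y-linked transcripts, against WT libraries that all carry them. Label and sex then cannot be told apart. RNA of inner layer markers was present too, with sums of 192 to 338 FPKM for 10 epiblast and 90 to 241 FPKM for 11 primitive endoderm markers. Dab2 and Gata6 made up most of the latter sum, at 156.56 and 29.05 of 241 FPKM in WT replicate 2. Gata4 was at most 4.08 FPKM in any library. Of the epiblast markers, Nanog was at 36.08 to 63.47 FPKM and Sox2 at most 3.14 FPKM. The sums therefore rest on few genes and do not measure the share of each layer. Of 3 listed oocyte markers the sum was at most 2.27 FPKM in 7 libraries and 22.1 and 7.03 FPKM in replicates 2 and 3 labelled Carm1-/-. Of the latter sums Zp3 held 19.98 and 4.73 FPKM and Zp2 2.05 and 2.29 FPKM, while Gdf9 was at 0.03 and 0 FPKM there. In WT they were at most 0.27, 0.03 and 1.12 FPKM, in that order. Of 7 cumulus cell markers 0 matched a listed row. In bulk RNA, fewer cells of a type and less RNA per cell cannot be told apart.

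Matriptase, encoded by St14, is a serine protease with a transmembrane anchor at its amino end, and prostasin, encoded by Prss8, is a serine protease held by a lipid anchor. The pair can activate each other at the surface of epithelial cells, and the transmembrane inhibitors HAI-1 (Spint1) and HAI-2 (Spint2) bind and block both. In mice the loss of either inhibitor disturbs the placenta and embryo, and removing matriptase relieves much of that. Known substrates or targets around the system include the adhesion protein Epcam and the protease-activated receptor F2rl1. Tmprss2 belongs to the same transmembrane family as matriptase and is best known from prostate, gut and airway epithelium. Serpinb6c is one of several neighbouring Serpinb6 paralogs of the mostly intracellular clade B serpins. The trophectoderm is the first epithelium of the mouse embryo.

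By the GENCODE M21 annotation of GRCm38, the proteases lie on different chromosomes. Tmprss2 is at chromosome 16, 97564682 to 97611195, St14 at chromosome 9, 31089402 to 31131853, and Prss8 at chromosome 7, 127925716 to 127930104, all on the minus strand. Spint1 is at chromosome 2, 119237362 to 119249527 on the plus strand, Spint2 at chromosome 7, 29256323 to 29281912 on the minus strand, and Serpinb6c at chromosome 13, 33879816 to 33905708 on the minus strand. All 6 are protein-coding, and each value is for the whole gene. St14 overlaps the processed pseudogene Gm16071 on the opposite strand. Prss8 overlaps Kat8 on the opposite strand, and 73 of its 1849 distinct 50-base windows (3.95%) also occur in Kat8 transcripts. Serpinb6c shares 133 of 1341 windows (9.92%) with transcripts of 8 other genes, among them Serpinb6a, Serpinb6b, Serpinb6d and Serpinb6e. Reads from those stretches cannot be assigned with certainty, and the authors' treatment of them is not given in the sources used here. Tmprss2, St14, Spint1 and Spint2 shared 0 windows with another gene.

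The table of RefSeq promoters on GRCm38.p6 held 4 of the 6 members, Tmprss2, Spint1, Spint2 and Serpinb6c. The 250 bases before the start are printed for Tmprss2, the member with the widest range of log2(FPKM + 1), and for the inhibitors Spint1 and Spint2, to set their letters side by side. Capitals mark matches, on either strand, to GGAATG, the core that TEAD factors (the partners of Yap) bind, and to GGGCGG, the core bound by SP and KLF factors.
Tmprss2, chr16:97611196-97611445, minus strand: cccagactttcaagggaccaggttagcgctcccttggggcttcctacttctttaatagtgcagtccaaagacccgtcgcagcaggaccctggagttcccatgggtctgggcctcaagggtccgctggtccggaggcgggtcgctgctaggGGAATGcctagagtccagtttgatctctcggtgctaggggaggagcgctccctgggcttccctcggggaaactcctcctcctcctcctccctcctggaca
Spint1, chr2:119237110-119237359, plus strand: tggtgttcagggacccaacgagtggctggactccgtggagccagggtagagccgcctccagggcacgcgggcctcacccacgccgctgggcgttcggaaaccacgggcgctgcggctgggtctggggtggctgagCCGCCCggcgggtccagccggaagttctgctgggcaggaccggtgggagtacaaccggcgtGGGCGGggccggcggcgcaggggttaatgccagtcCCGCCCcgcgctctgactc
Spint2, chr7:29281978-29282227, minus strand: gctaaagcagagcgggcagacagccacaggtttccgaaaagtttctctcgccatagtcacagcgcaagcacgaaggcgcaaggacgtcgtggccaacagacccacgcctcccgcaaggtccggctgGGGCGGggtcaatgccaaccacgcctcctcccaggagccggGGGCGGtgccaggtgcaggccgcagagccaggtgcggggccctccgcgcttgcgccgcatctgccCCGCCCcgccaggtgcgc
The Tmprss2 window held GGAATG 1 time, 100 bases before the start, and GGGCGG 0 times. Spint1 and Spint2 each held GGGCGG 3 times and GGAATG 0 times, and the Serpinb6c window held them 1 and 0 times. Of all 32851 windows 12.6% held GGAATG and 32.7% held GGGCGG. GCCNNNGGC, an AP-2 core, matched 1 time each in Spint1, Spint2 (where it overlaps a GGGCGG match) and Serpinb6c, against 13.7% of windows. The core AACCNGTT of Grhl factors occurred in 1.79% of all windows, AGATAA of the Gata3 family in 9.99% and TTTATG of Cdx factors in 10.8%, and each matched in 0 of the 4 member windows, with both strands searched throughout. The GC content was 72.8% for Spint1 and 69.6% for Spint2 against 61.6% for Tmprss2, 58.8% for Serpinb6c and a median of 52.4%. The Serpinb6c window, chromosome 13, 33905192 to 33905441, lies before a RefSeq start but inside the GENCODE gene, which reaches 33905708. The windows of Tmprss2, Spint1 and Spint2 lie outside their GENCODE genes, so that of Serpinb6c is not of the same kind. These are matches of letters, not sites shown to be bound.

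In WT libraries all 6 members were well expressed. Their mean FPKM lay between the 83.6 and the 94.2 percentile of the listed genes. Serpinb6c was highest at 108 ± 25.7 FPKM, followed by Spint1 at 86.7 ± 25 FPKM, Spint2 at 54.5 ± 17.3 FPKM, Prss8 at 41.3 ± 7.1 FPKM, Tmprss2 at 34.9 ± 10.2 FPKM and St14 at 27.7 ± 4.76 FPKM (SD, n = 3). FPKM are scaled by length, so genes can be set in order, but each neighbouring pair in this order overlapped between libraries. Both Kunitz inhibitors were above St14 in every WT library.

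**Figure D1:**
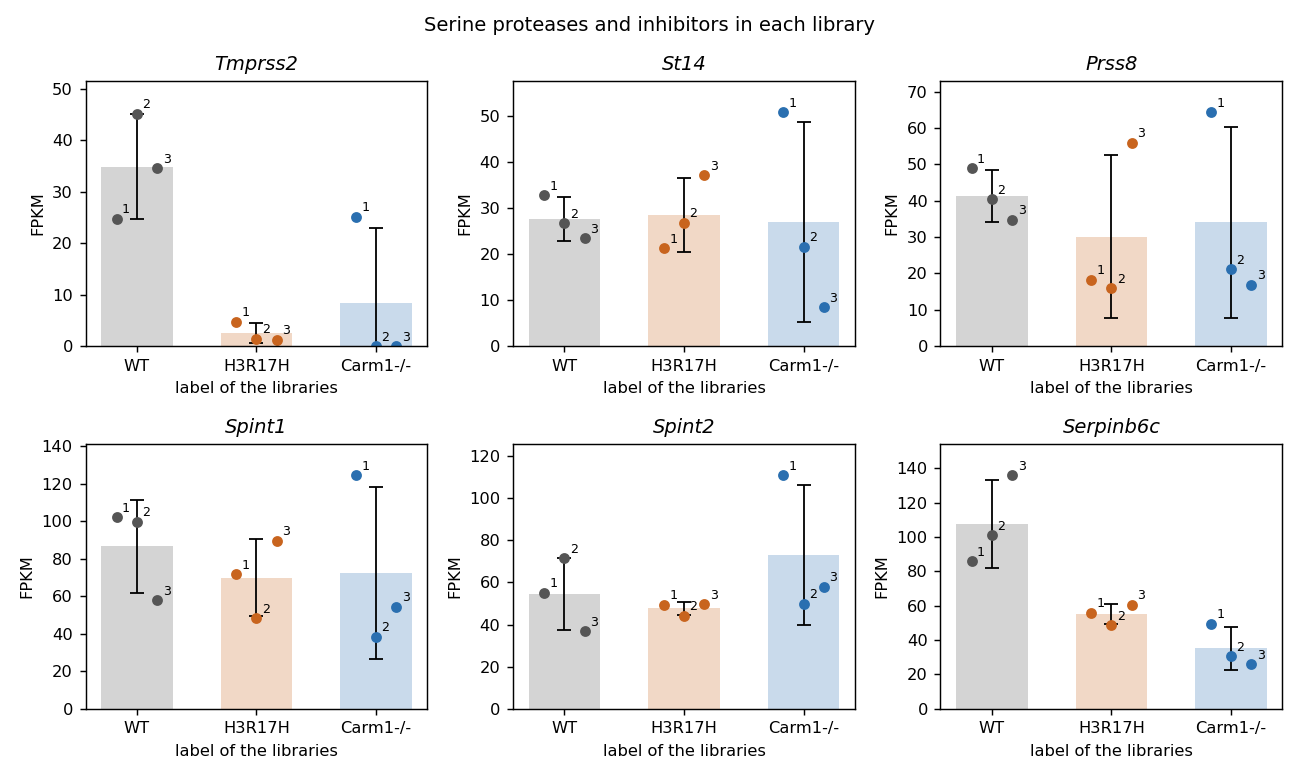
FPKM of the 6 members for each library (points with the replicate number) and the mean of each label (bar) with its SD over 3 libraries (error bar). Under the label H3R17H Tmprss2 lies between 1.23 and 4.75 FPKM against 24.80 to 45.18 FPKM in WT, and replicate 1 labelled Carm1-/- is the highest of the 9 libraries for St14, Prss8, Spint1 and Spint2.

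Among the proteases Tmprss2 had the widest range of log2(FPKM + 1). Replicates 1 to 3 of WT had 24.80, 45.18 and 34.65 FPKM, and those of the label H3R17H 4.75, 1.47 and 1.23 FPKM. In the libraries labelled Carm1-/- it stood at 25.18 FPKM in replicate 1, was listed at 0 in replicate 2 and was at 0.01 FPKM in replicate 3. All 3 libraries labelled H3R17H were below all 3 WT libraries, with a WT mean 14-fold higher, while the group labelled Carm1-/- was split between the WT range and near 0. On the scale of log2(FPKM + 1), which understates the change of low values, the difference of Tmprss2 from WT was -3.46 (SE 1.05) for the label H3R17H and -3.55 (SE 1.05) for the label Carm1-/-. The latter was -5.12 (SE 0.46) without replicate 1 labelled Carm1-/-. Replicates 2 and 3 then remained, both without Y-linked transcripts, which all WT libraries carried, so label and sex cannot be told apart there. Libraries without Y-linked transcripts were the 4 lowest for Tmprss2, at most 1.47 FPKM. Replicate 1 labelled H3R17H carried Y-linked transcripts and stood at 4.75 FPKM, also below every WT library, whereas replicate 1 labelled Carm1-/- carried them and lay within the WT range. With a sex term in the fit the differences were -1.47 (SE 0.74) and -1.55 (SE 0.74). That term rests on the gaps between these 2 libraries and the others of their labels, and takes the gap as equal under both. The gaps were unlike: 4.75 against 1.47 and 1.23 FPKM for H3R17H, and 25.18 against 0 and 0.01 FPKM for Carm1-/-, as labelled.

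St14, the gene of matriptase, did not follow Tmprss2. It stood at 32.85, 26.68 and 23.49 FPKM in WT, at 21.27, 26.88 and 37.15 FPKM under the label H3R17H and at 50.86, 21.64 and 8.45 FPKM in those labelled Carm1-/-. The 3 groups overlapped, and the highest and the lowest of the 9 values both came from the group labelled Carm1-/-. The log2 difference from WT was 0.02 (SE 0.51) for the label H3R17H and -0.35 (SE 0.51) for the label Carm1-/-. Leaving out replicate 1 labelled Carm1-/- moved the latter to -0.96 (SE 0.39), and leaving out replicate 3 turned it to 0.27.

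Prss8, the gene of prostasin, was at 48.85, 40.37 and 34.75 FPKM in WT, at 18.26, 15.92 and 55.89 FPKM for H3R17H replicates 1 to 3 as labelled and at 64.27, 21.06 and 16.89 FPKM in those labelled Carm1-/-. Each edited group held 1 library above all WT libraries and 2 below them, so the group means of 30 ± 22.4 and 34.1 ± 26.2 FPKM (SD, n = 3) describe no library. The edited libraries with high Prss8 were replicate 3 labelled H3R17H and replicate 1 labelled Carm1-/-. Both also had the highest summed trophectoderm markers of their groups, 4890 and 9410 FPKM, mostly from Krt8 and Krt18. The part of those markers in the level of Prss8 was not tested. The log2 differences were -0.66 (SE 0.54) and -0.51 (SE 0.54), and -1.08 (SE 0.47) for the label Carm1-/- without its replicate 1. In WT the ratio of Prss8 to St14 was 1.49, 1.51 and 1.48 in replicates 1 to 3. It was 0.858, 0.592 and 1.5 under the label H3R17H and 1.26, 0.973 and 2 in those labelled Carm1-/-, so it varied little within WT and more within either edited group.

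The Kunitz inhibitors kept overlapping ranges in WT and in either edited group. Spint1, the gene of HAI-1, stood at 102.19, 99.93 and 57.85 FPKM in WT, at 71.91, 48.40 and 89.74 FPKM under the label H3R17H and at 124.73, 38.47 and 54.51 FPKM in those labelled Carm1-/-. Its groups overlapped, with log2 differences from WT of -0.30 (SE 0.42) and -0.38 (SE 0.42); both turned positive with a sex term, to 0.21 and 0.13. Without replicate 1 labelled Carm1-/- the latter was -0.86 (SE 0.34). Spint2, the gene of HAI-2, stood at 55.20, 71.44 and 36.95 FPKM in WT, at 49.34, 44.17 and 49.62 FPKM under the label H3R17H and at 111.01, 49.89 and 57.91 FPKM in those labelled Carm1-/-. All libraries labelled Carm1-/- lay above all those labelled H3R17H, the closest pair being 49.89 and 49.62 FPKM, and both groups overlapped WT. The log2 differences from WT were -0.14 (SE 0.33) and 0.37 (SE 0.33), the first turning to 0.23 with a sex term and the second 0.03 (SE 0.28) without replicate 1 labelled Carm1-/-.

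Within a library the balance of the inhibitors to each other and to the proteases can be read without a comparison of library totals. The ratio of Spint1 to Spint2 was 1.85, 1.4 and 1.57 in WT, 1.46, 1.1 and 1.81 under the label H3R17H and 1.12, 0.771 and 0.941 in those labelled Carm1-/-. All 3 libraries labelled Carm1-/-, replicate 1 included, lay below all 3 WT libraries, whereas the group labelled H3R17H overlapped both. The summed FPKM of Tmprss2, St14 and Prss8 was 92.9 to 112 in WT, 44.3, 44.3 and 94.3 under the label H3R17H and 140, 42.7 and 25.4 in those labelled Carm1-/-. Tmprss2 made up 23.3% to 40.3% of that sum in WT, 1.3% to 10.7% under the label H3R17H and 17.9%, 0% and 0.0418% in replicates 1 to 3 labelled Carm1-/-. The summed Spint1 and Spint2 divided by that protease sum came to 1.34 ± 0.281 in WT, 2.1 ± 0.63 under the label H3R17H and 2.73 ± 1.49 under the label Carm1-/- (SD, n = 3). The ratio overlapped between WT and H3R17H, where replicate 3 equalled WT replicate 1 at 1.48. All libraries labelled Carm1-/- lay above WT, the highest at 4.43 in replicate 3, where St14 was lowest. That protease sum includes Tmprss2, which was near 0 in replicates 2 and 3. Spint1 to St14 alone was 2.46 to 3.75 in WT and 2.45, 1.78 and 6.45 under the label Carm1-/-. Spint2 to Prss8 alone was 1.06 to 1.77 in WT and 1.73, 2.37 and 3.43 under that label. Both ratios overlapped WT, as did those of Spint1 to Prss8 and of Spint2 to St14. These ratios were chosen after their values were seen and say nothing of protein or enzyme activity.

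**Figure D2:**
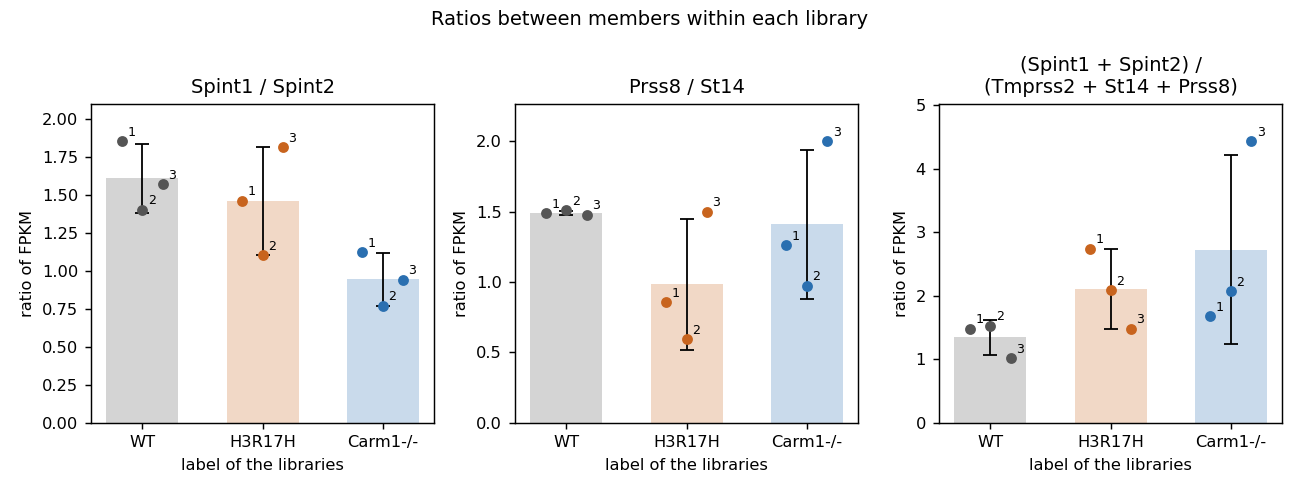
Ratios of FPKM withfor each library (points with the replicate number) and the mean of each label (bar) with its SD over 3 libraries (error bar): Spint1 to Spint2, Prss8 to St14, and the summed Kunitz inhibitors to the summed proteases. The Prss8 to St14 ratio lies between 1.48 and 1.51 in WT, and the Spint1 to Spint2 ratio lies at or below 1.12 in the libraries labelled Carm1-/- against at least 1.4 in WT.

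Serpinb6c, the serpin, was lower in every edited library than in every WT library. It stood at 85.90, 100.98 and 136.07 FPKM in WT, at 56.01, 48.80 and 60.51 FPKM under the label H3R17H and at 49.56, 30.51 and 25.92 FPKM in those labelled Carm1-/-. Unlike Tmprss2, it was below WT also in replicate 1 labelled Carm1-/-, the library that is highest for both Kunitz inhibitors. The WT mean was 1.95-fold that of the label H3R17H and 3.05-fold that of the label Carm1-/-. The log2 differences from WT were -0.93 (SE 0.28) and -1.61 (SE 0.28), and -1.87 (SE 0.25) for the label Carm1-/- without its replicate 1. With a sex term they were -0.65 (SE 0.32) and -1.33 (SE 0.32). The groups labelled Carm1-/- and H3R17H overlapped, with a difference of -0.68 (SE 0.28).

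Over the whole table, limma on all 9 libraries called 0 of 11850 genes (0%) at a Benjamini-Hochberg adjusted p under 0.05 in each of the 3 comparisons, and 0 of the 6 members. At an unadjusted p under 0.05 it had 1677 genes for H3R17H vs WT (7.75% of the tested genes lower and 6.41% higher), 1355 for Carm1-/- vs WT (6.19% and 5.25%) and 973 for Carm1-/- vs H3R17H (4.12% and 4.09%). Of the members, Tmprss2 and Serpinb6c stood at that level in both comparisons with WT and Serpinb6c in the third, all lower. Without replicate 1 labelled Carm1-/- the calls at the adjusted p rose to 125 genes for H3R17H vs WT and 549 for Carm1-/- vs WT. In the latter comparison the label Carm1-/- was left with 2 libraries, both without Y-linked transcripts, so label and sex cannot be told apart. Among members, 5 of 6 had lower values than WT under each label, with medians of -0.48 for H3R17H and -0.44 for Carm1-/-, while 52.3% and 53.7% of all tested genes had lower values, with medians of -0.03 and -0.04. The 2 comparisons share the WT libraries. Tmprss2 and Serpinb6c were the 2 of 6 whose libraries labelled H3R17H all lay below WT, as did 15.6% of the tested genes. In Carm1-/- vs WT, Serpinb6c alone did so, as did 9.71% of the tested genes, and 0 members lay higher in all, as did 6.91%. In Carm1-/- vs H3R17H, Spint2 lay higher in all libraries, as did 5.13% of the tested genes, and no member lay lower in all, as did 6.07%. In that comparison the differences were -0.09 (SE 1.05) for Tmprss2, -0.36 (SE 0.51) for St14, 0.16 (SE 0.54) for Prss8, -0.08 (SE 0.42) for Spint1 and 0.51 (SE 0.33) for Spint2. Since results of these comparisons were known when the members were chosen, nothing is read from these counts.

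**Figure D3:**
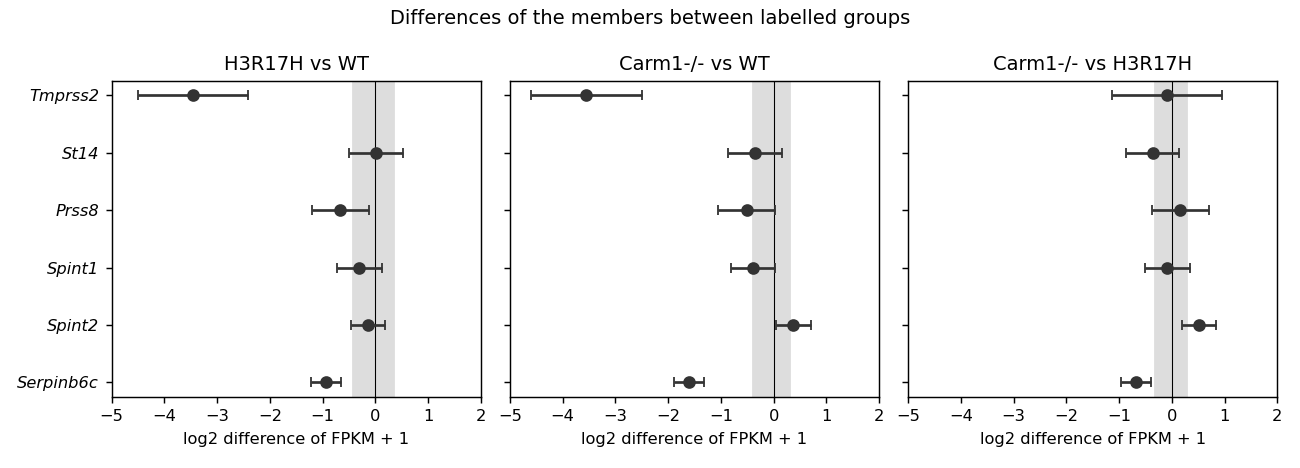
Log2 difference of FPKM + 1 for each member (point) with its SE from limma (bar) in the 3 comparisons, and the middle 50% of all 11850 tested genes (grey band). Tmprss2 lies at -3.46 and -3.55 against WT, Serpinb6c at -0.93 and -1.61, and the SE bars of the other 4 members reach into the band.

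The targets and receptors of the system were read from a list of 17 genes, of which 10 were listed and 8 tested. Under the label H3R17H 5 had lower and 3 higher values than WT, with a median of -0.55, and under the label Carm1-/- 4 and 4, with a median of -0.25; 0 passed in either. Epcam, an epithelial adhesion protein that matriptase can cleave, averaged 659 ± 73.6 FPKM in WT, 268 ± 179 FPKM under the label H3R17H and 344 ± 200 FPKM under the label Carm1-/- (SD, n = 3). All edited libraries lay below WT, with log2 differences of -1.50 (SE 0.50, limma adjusted p = 0.258) and -1.12 (SE 0.50, adjusted p = 0.428). F2rl1, the receptor that trypsin-like proteases switch on by cleavage, was at 10.50, 11.74 and 9.80 FPKM in WT, at 7.49, 1.53 and 7.60 FPKM under the label H3R17H and at 7.27, 0.00 and 4.24 FPKM under the label Carm1-/-. Every edited library was below WT, with log2 differences of -1.03 (SE 0.73) and -1.73 (SE 0.73), and neither passed (limma adjusted p = 0.538 and 0.408). Plaur, the urokinase receptor, went the other way, with 14.4 ± 5.66, 39.7 ± 23.2 and 51.5 ± 20.4 FPKM (adjusted p = 0.317 and 0.272 in limma). For the label Carm1-/- all its libraries lay above WT.

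Among other trypsin-like serine proteases, of 39 symbols 18 were listed and 11 tested. Of these 8 had lower values under the label H3R17H (median -0.73) and 7 had higher values under the label Carm1-/- (median 0.49), and 0 passed. Several of those counted as higher averaged under 1 FPKM in WT. Over the 18 listed genes the median by library relative to WT was 0.35, -0.1 and -0.21 in replicates 1 to 3 labelled Carm1-/-, so it was positive in replicate 1 only. Plat, tissue plasminogen activator, averaged 19.2 ± 6.55 FPKM in WT and 8.24 ± 3.72 FPKM under the label H3R17H, and was at 83.95, 12.12 and 8.03 FPKM in replicates 1 to 3 labelled Carm1-/-, so replicate 1 again stood apart. Htra1, a secreted protease, averaged 10.8 ± 1.26 FPKM in WT, 4.03 ± 2.78 FPKM under the label H3R17H and 6.23 ± 7.01 FPKM under the label Carm1-/-, where replicates 1 to 3 had 13.82, 0.00 and 4.88 FPKM. Without replicate 1 that mean was 2.44 FPKM and the log2 difference of Htra1 from WT moved from -1.41 to -2.28. Tmprss12, a relative of Tmprss2, went the other way at a low level, with 3.09 ± 0.857 FPKM in WT, 9.05 ± 4.46 and 9.75 ± 7.2 FPKM, differences of 1.20 (SE 0.59, limma adjusted p = 0.385) and 1.10 (SE 0.59, adjusted p = 0.488). Among the proprotein convertases, which cut precursors in the secretory pathway, 4 of 9 were listed and tested. They had lower values in 4 of 4 and 3 of 4 cases, with medians of -0.36 and -0.30, and 0 passed. Pcsk6, the highest of them, averaged 19.9 ± 5.88, 15.2 ± 4.87 and 18.4 ± 8.7 FPKM, with overlapping groups, and the site-1 protease Mbtps1 13.8 ± 3.16, 11 ± 4.07 and 9.76 ± 2.18 FPKM. Pcsk7 averaged 3.08 ± 0.76, 2.65 ± 1.2 and 3.98 ± 1.84 FPKM.

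Among other inhibitors, of 20 genes of the Kunitz, Kazal and WAP families 10 were listed and 8 tested, with 6 lower under the label H3R17H (median -0.58) and 4 lower and 4 higher under the label Carm1-/- (median -0.18); 0 passed. Wfdc2, a secreted WAP-domain protein of epithelia, averaged 91.2 ± 12.2 FPKM in WT, 29.8 ± 21.4 FPKM under the label H3R17H and 74.3 ± 57.5 FPKM under the label Carm1-/-. All libraries labelled H3R17H were below WT (difference -1.79, SE 0.54, limma adjusted p = 0.237), while replicate 1 labelled Carm1-/- was the highest of all at 140.10 FPKM and the mean without it was 41.4 FPKM. Aplp2, a membrane protein with a Kunitz domain in some isoforms, averaged 96.8 ± 6.8, 65.2 ± 25.8 and 72.1 ± 22.3 FPKM, and Wfdc15a, a further WAP protein, 41.9 ± 14.3, 56.5 ± 11.6 and 55.7 ± 19.9 FPKM.

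Of 24 other clade B serpins 4 were listed and 2 tested, both lower than WT under either label. Serpinb6a, the paralog of Serpinb6c, was at 83.69, 85.06 and 108.87 FPKM in WT, at 77.79, 49.99 and 75.33 FPKM under the label H3R17H and at 63.36, 31.80 and 65.83 FPKM under the label Carm1-/-. As for Serpinb6c, every edited library lay below WT, but the differences were smaller, -0.46 (SE 0.31, limma adjusted p = 0.515) and -0.83 (SE 0.31, adjusted p = 0.368). Serpinb6b, with which Serpinb6c shares the most windows, was at most 3.18 FPKM and was not tested. Serpinb9b averaged 81.9 ± 15.5, 47.2 ± 23.6 and 32.4 ± 27.1 FPKM, with all libraries labelled Carm1-/- below WT (difference -1.59, SE 0.52, limma adjusted p = 0.314). Its difference for the label H3R17H was -0.90 (SE 0.52) and turned to 0.08 with a sex term. Without replicate 1 labelled Carm1-/- the mean of Serpinb9b was 16.7 FPKM and its difference -2.22 (SE 0.40), which passed (limma adjusted p = 0.0205). Only libraries without Y-linked transcripts were left under that label, so label and sex cannot be told apart there. Of 17 serpins of other clades 5 were listed and 3 tested. Serpine2, an extracellular inhibitor of thrombin and plasminogen activators, averaged 80.3 ± 16.8, 58.8 ± 9.72 and 94.9 ± 48.9 FPKM. Serpinh1, a collagen chaperone without inhibitor activity, averaged 46.3 ± 12.9, 18.9 ± 21.3 and 102 ± 95.7 FPKM (47.9 FPKM without replicate 1 labelled Carm1-/-), and Serping1, the inhibitor of complement C1, 1.29 ± 0.521, 1.11 ± 0.999 and 1.16 ± 0.662 FPKM.

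The epithelial setting was described by junction genes and transcription factors. Of 20 tested junction and keratin genes 18 had lower values under the label H3R17H and 16 under the label Carm1-/-, with medians of -0.67 and -0.75, and 0 passed. By library, the median of the junction list relative to WT was 0.34 in replicate 1 labelled Carm1-/- and -1.31 and -0.66 in replicates 2 and 3, so the libraries of that label went opposite ways. Krt8 and Krt18, the keratin pair of trophectoderm, averaged 2512 and 3304 FPKM in WT, and Krt8 differed by -1.45 (SE 0.58, limma adjusted p = 0.316) and -0.70 (SE 0.58, adjusted p = 0.652). Without replicate 1 labelled Carm1-/- the latter was -1.39 (SE 0.44), with means under that label of 958 FPKM for Krt8 and 1187 FPKM for Krt18. Cldn7, a claudin that binds Epcam, averaged 320 ± 64.4, 313 ± 122 and 188 ± 60.8 FPKM. Of 17 tested epithelial transcription factors 11 had lower values under either label, with medians of -0.05 and -0.30. Grhl2, a factor of epithelial identity, averaged 12 ± 1.74, 16.4 ± 1.06 and 14.5 ± 4.22 FPKM, differences of 0.42 (SE 0.28, limma adjusted p = 0.514) and 0.22 (SE 0.28, adjusted p = 0.786). Elf3 averaged 305 ± 30.3, 349 ± 51.6 and 209 ± 167 FPKM and Klf5 115 ± 21.7, 114 ± 37.3 and 98.4 ± 36 FPKM. Gata3, a trophectoderm factor, averaged 321 ± 46.2, 183 ± 36.2 and 142 ± 115 FPKM, with all edited libraries below WT (limma adjusted p = 0.411 and 0.281). The closest pair was 275.66 FPKM in replicate 1 labelled Carm1-/- and 277.16 FPKM in WT replicate 1. Without replicate 1 labelled Carm1-/- the means under that label were 117 FPKM for Elf3 and 75.8 FPKM for Gata3, and both passed against WT (limma adjusted p = 0.0385 and 0.0054). These means rest on 2 libraries, both without Y-linked transcripts, so label and sex cannot be told apart in that comparison.

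**Figure D4:**
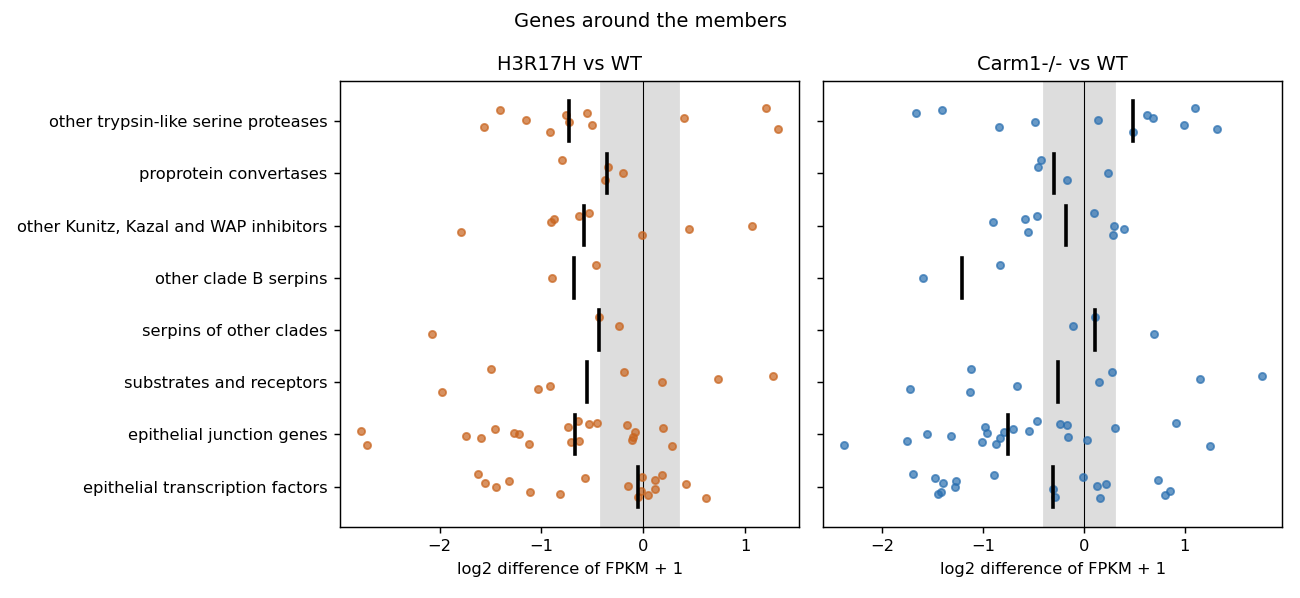
Log2 difference of FPKM + 1 from WT for each tested gene of the 8 lists (points), with the list's median (black line) and the middle 50% of all 11850 tested genes (grey band), for the libraries labelled H3R17H (left) and Carm1-/- (right). The junction genes have medians of -0.67 and -0.75, and the other trypsin-like proteases of -0.73 and 0.49. By library, the medians of both lists are above WT in replicate 1 labelled Carm1-/- and below it in replicates 2 and 3.

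The genes whose pattern was most like each member were found by Pearson's r of log2(FPKM + 1) over the 9 libraries, among 6078 genes with a mean of at least 5 FPKM. The libraries share their group and their overall state, so r is a description here and carries no p. Tmprss2 was most like Dnmt3b, a DNA methyltransferase (r = 0.992), Id2, a trophectoderm marker (0.987), and Pgap2 (0.967). Id2 was at 307.73, 452.45 and 535.52 FPKM in WT, 74.46, 39.34 and 52.93 FPKM under the label H3R17H and 296.32, 32.39 and 25.72 FPKM under the label Carm1-/-, low in the same 5 libraries as Tmprss2. With a pseudocount of 0.1 the r of Id2 was 0.942, and over the 9 fits without 1 library it was 0.983 to 0.99.

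The other members had other nearest genes, so 6 members gave 18 different names. St14 was most like Plec (0.94), Fzr1 (0.927) and Slc16a13 (0.925), Prss8 like Coro1c (0.959), Slc35a4 (0.951) and Fam65a (0.944), and Spint1 like Cers2 (0.974), Acaa1a (0.964) and Ywhag (0.954). Spint2 was most like Lama5 (0.926), Tcf25 (0.908) and Fhl2 (0.878). Leaving out 1 library lowered the r of Spint2 with Fhl2 to 0.652 and with Lama5 to 0.757, and that of St14 with Fzr1 to 0.791. Serpinb6c was most like Rab2a, a small GTPase of the early secretory pathway (0.984), Fam96a (0.957) and Zwilch (0.946). Rab2a was at 27.57, 32.02 and 34.16 FPKM in WT, 20.41, 19.95 and 24.47 FPKM under the label H3R17H and 22.03, 16.59 and 14.62 FPKM under the label Carm1-/-, lower than WT in all 6 edited libraries as Serpinb6c was.

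**Figure D5:**
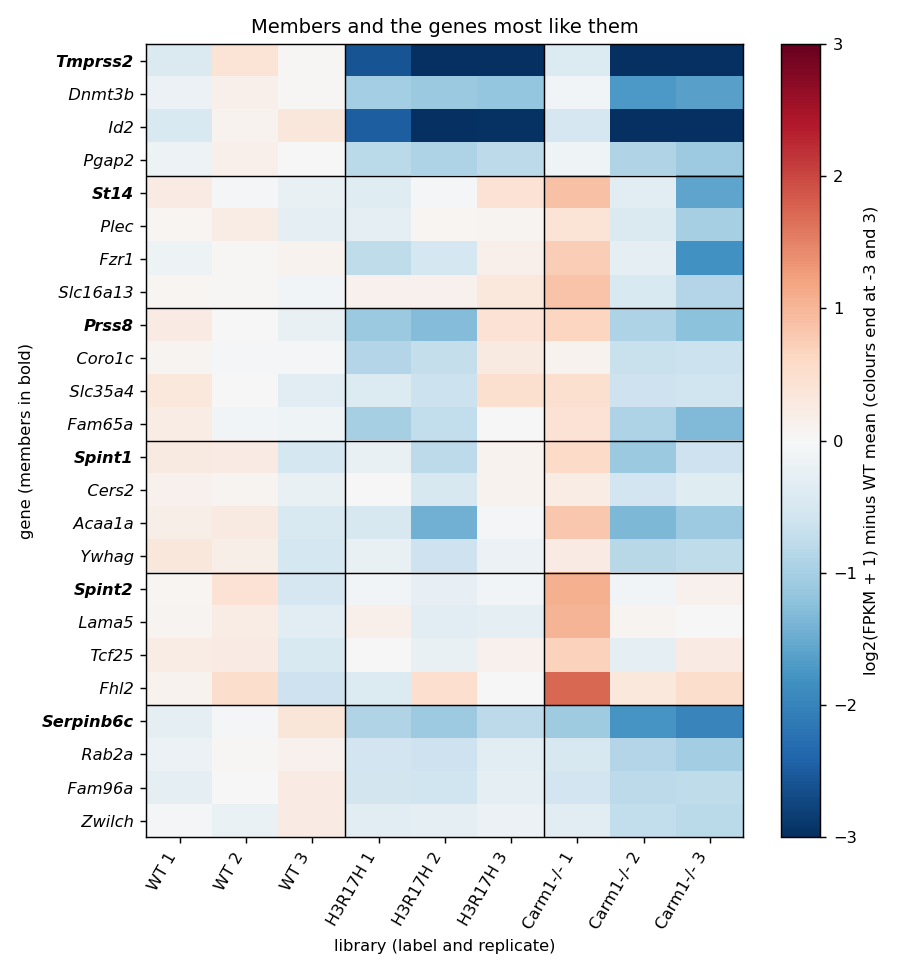
Log2(FPKM + 1) minus the WT mean in each of the 9 libraries for the 6 members (bold) and, under each, the 3 genes with the highest Pearson's r to it; red is higher and blue lower than WT. Tmprss2 and Id2 are low in the 3 libraries labelled H3R17H and in replicates 2 and 3 labelled Carm1-/-, and Serpinb6c and Rab2a in all 6 edited libraries.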

How the data were processed

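Each library has 1 column of FPKM in the table that the authors deposited, per the file headers. Bowtie 0.12.2, mm10 and GRCm38 appear in the submitters' processing notes, where their roles are not stated. Which program made the FPKM, from which annotation and whether by strand, is not stated in the labels. Only FPKM were used and depth was not worked out from them, so no counting interval is given. The summed FPKM per library was 521143 to 567858, and 0 library pairs held identical values.

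Values were tested as log2(FPKM + 1) for the 11850 genes that reached 1 FPKM in 3 or more libraries, in 1 limma fit of the 9 libraries with an intensity trend and Benjamini-Hochberg adjustment at 0.05. Differences are on that scale, and folds are ratios of mean FPKM. The fit was tested on simulated data. The members and lists were chosen with earlier results of these data known. Named were the members, Carm1, up to 3 genes of highest mean per list, 5 fixed genes, and 3 genes per member by r, without predicted models. A gene that the rule names is not reported here. The ratios between members and the promoter motifs were chosen after values were seen. Alternatives changed the pseudocount (0.1, 5), filter, scaling, trend, weights, libraries, replicate block and a sex term. R 4.3.3, limma 3.58.1, Python 3.11.15, pandas 2.3.3, numpy 2.4.6 and matplotlib 3.10.9 were used.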

Additional observations from a re-analysis of the deposited data

How the results depend on the processing

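The count of genes called over the table, 0 in each comparison, depends on which libraries enter. For H3R17H vs WT it was 192 with array quality weights, 240 in a fit of those groups alone, 1 with a pseudocount of 5 and 0 to 125 over the fits without 1 library, the highest without replicate 1 labelled Carm1-/-. For Carm1-/- vs WT it was 1 with a pseudocount of 0.1 and 1 with array quality weights. Without 1 library it was 0 to 549, the highest again without that replicate, where label and sex cannot be told apart. For Carm1-/- vs H3R17H it was 1 with a pseudocount of 0.1, 1 with 5, 2 with median-of-ratios scaling, 2 with quantile normalization, 3 with no trend and 0 to 10 without 1 library. In H3R17H vs WT the difference of Tmprss2 was -3.46 both with and without replicate 1 labelled Carm1-/-, while its SE went from 1.05 to 0.41. The fit shares 1 estimate of spread over all groups, so leaving out a library labelled Carm1-/- changes the SE there and not the difference. The cause of the changes in the counts was not tested.

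Of 360 values of the members under 20 alternatives, 334 kept their direction and side of the threshold, 21 changed direction and 5 came to pass. Those 5 were Tmprss2 in H3R17H vs WT under array quality weights (limma adjusted p = 0.0335), in a fit of those groups alone (0.0143) and when replicate 1 labelled Carm1-/- was left out (0.017), and in Carm1-/- vs WT, with that replicate left out, Tmprss2 (0.0026) and Serpinb6c (0.0125). The adjusted p of Tmprss2 was otherwise up to 0.708 and 0.947, and of Serpinb6c up to 0.838 in Carm1-/- vs WT. Of 2634 values of the other named genes 2511 kept both, 107 changed direction and 16 came to pass. Without replicate 1 labelled Carm1-/- those passing in Carm1-/- vs WT included Id2 (limma adjusted p = 0.0017), Gata3 (0.0054), Dnmt3b (0.0125), Serpinb9b (0.0205) and Elf3 (0.0385). For all genes passing in that comparison, members included, label and sex cannot be told apart, as only libraries without Y-linked transcripts were left under that label. Carm1 and Id2 passed in H3R17H vs WT under the same 3 alternatives as Tmprss2, and Dnmt3b in the fit of those groups alone.

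A sex term in H3R17H vs WT turned Spint1 to 0.21, Spint2 to 0.23, Pcsk7 to 0.11, Serpinb9b to 0.079, Cldn7 to 0.068, Plec to 0.21, Fzr1 to 0.016, Slc35a4 to 0.064, Cers2 to 0.16, Acaa1a to 0.10, Ywhag to 0.063, Lama5 to 0.33 and Tcf25 to 0.21. Array quality weights in H3R17H vs WT turned Klf5 to 0.00083 and Fhl2 to -0.18. Over the fits without 1 library the log2 difference in H3R17H vs WT ran for St14 -0.19 to 0.20, Spint2 -0.39 to 0.075, Pcsk7 -0.43 to 0.055, Serping1 -0.54 to 0.24, Cldn7 -0.37 to 0.15, Klf5 -0.29 to 0.15 and Plec -0.19 to 0.073. Likewise it ran for Slc35a4 -0.52 to 0.039, Cers2 -0.25 to 0.049, Tcf25 -0.26 to 0.088 and Fhl2 -0.28 to 0.30. A sex term in Carm1-/- vs WT turned St14 to 0.076, Spint1 to 0.13, Slc16a13 to 0.32, Slc35a4 to 0.0056, Cers2 to 0.045 and Acaa1a to 0.21. Array quality weights in Carm1-/- vs WT turned Plat to -0.49. Quantile normalization in Carm1-/- vs WT turned Serping1 to 0.012. Over the fits without 1 library the log2 difference in Carm1-/- vs WT ran for St14 -0.96 to 0.27, Plat -0.85 to 0.77, Pcsk6 -0.49 to 0.21, Pcsk7 -0.044 to 0.42, Serpine2 -0.26 to 0.55, Serpinh1 -0.059 to 1.40 and Serping1 -0.32 to 0.14. Likewise it ran for Klf5 -0.48 to 0.063, Fzr1 -1.05 to 0.22, Slc16a13 -0.67 to 0.21 and Tcf25 -0.013 to 0.47. A pseudocount of 5 in Carm1-/- vs H3R17H turned Tmprss2 to 0.31, Htra1 to 0.16 and Fam65a to 0.023. Array quality weights in Carm1-/- vs H3R17H turned Prss8 to -0.30, Tmprss12 to 0.41, Htra1 to 0.31, Pcsk6 to -0.11, Wfdc15a to 0.22, Id2 to -0.34, Pgap2 to -0.048, Coro1c to -0.15 and Acaa1a to -0.26. Median-of-ratios scaling in Carm1-/- vs H3R17H turned Fam65a to 0.00040. Over the fits without 1 library the log2 difference in Carm1-/- vs H3R17H ran for Tmprss2 -1.65 to 0.70, St14 -0.97 to 0.25, Prss8 -0.41 to 0.71, Spint1 -0.56 to 0.28, Tmprss12 -0.61 to 0.61, Htra1 -0.88 to 1.07 and Pcsk6 -0.12 to 0.58. Likewise it ran for Mbtps1 -0.40 to 0.12, Aplp2 -0.073 to 0.47, Wfdc15a -0.32 to 0.13, Serping1 -0.34 to 0.43, Epcam -0.052 to 0.89, Plaur -0.066 to 0.90 and Klf5 -0.44 to 0.11. Likewise it ran for F2rl1 -1.32 to 0.21, Grhl2 -0.37 to 0.034, Dnmt3b -0.58 to 0.24, Id2 -0.87 to 0.86, Pgap2 -0.16 to 0.32, Plec -0.67 to 0.026 and Fzr1 -0.66 to 0.61. Likewise it ran for Slc16a13 -0.85 to 0.020, Coro1c -0.22 to 0.39, Slc35a4 -0.42 to 0.27, Fam65a -0.53 to 0.34, Cers2 -0.34 to 0.055, Acaa1a -0.57 to 0.50 and Ywhag -0.45 to 0.082. Tmprss2 in Carm1-/- vs WT was -5.70 with a pseudocount of 0.1 and -2.10 with 5.

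With the replicate number as a replicate block the counts stayed at 0 in each comparison. The numbers only name libraries: same-numbered libraries had correlations of their deviations from the group means between -0.0501 and 0.183.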
